A study of Mus musculus with 6 samples.

Results

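The genes described here build autophagosomes and run lysosomes. They were taken by symbol: those beginning Atg and a digit, Wipi, Gabarap, Map1lc3, Atp6v0 or Atp6v1, together with 8 cathepsins (Ctsa, Ctsb, Ctsc, Ctsd, Ctsh, Ctsl, Ctss and Ctsz), Lamp1, Lamp2, Sqstm1, Becn1, Ulk1 and Tfeb. Of 65 annotated symbols that fit this rule, 56 had a transcript in the deposited table and 53 reached a mean of 0.5 FPKM over the 6 samples, out of 12006 genes that reached that level. FPKM are fragments divided by the length of the transcript and by the size of the library, so levels can be roughly compared between genes. Between samples, shifts of whole libraries can remain. Size factors by median ratios ran from 0.854 in sham replicate 3 to 1.16 in I/R replicate 6. Atg16l2, Atp6v0d2 and Atp6v1g2 averaged 0.397, 0.404 and 0.416 FPKM, just under the minimum, and Atg4a-ps was the member nearest above it at 1.51 FPKM. Atg9b, Atp6v0a4, Atp6v1b1, Atp6v1c2, Atp6v1e2, Atp6v1fnb, Atp6v1g3 and the pseudogenes Atp6v0c-ps1 and Atp6v0c-ps2 were not analysed here.

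The samples were small intestine of C57BL/6 mice aged 8 weeks, 3 labelled intestinal ischemia/reperfusion (I/R; replicates 6, 7 and 9) and 3 labelled sham (replicates 1, 3 and 5). For I/R, blood flow through the main artery of the small intestine was stopped for a time and then let return, while the sham operation left that flow open. The labels name no transgene or deletion in either group. Whether every sample is its own animal is not stated, and p-values then capture only how these samples vary, which may be technical. The question put to these genes was whether their RNA differed between I/R and sham intestine.

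Macroautophagy encloses cytoplasm in a double membrane and delivers it to the lysosome. The ULK1 kinase complex and the Beclin 1 lipid kinase complex start the membrane, ubiquitin-like conjugation reactions attach ATG8 proteins (LC3 and GABARAP) to its lipid, and receptors such as p62 tie cargo to those proteins. In the lysosome a proton pump, the V-ATPase, makes the acid in which cathepsins digest protein. The transcription factor TFEB moves into the nucleus when the mTORC1 kinase is inactive, and it then switches on many of these genes. Much of the pathway is controlled on proteins, by phosphorylation, lipid attachment and turnover, which RNA levels do not show.

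Summed FPKM of the listed transcripts was 315726 to 330814 per library. Read depth is unknown, since FPKM keep no counts. Enterocyte markers, 12 genes that include Vil1 and Fabp2, summed to between 10699 and 15795 FPKM in I/R libraries and between 12177 and 21942 FPKM in sham libraries, so the tissue label was met in all 6. The libraries nevertheless stood apart in other cell types. Smooth muscle markers summed to 817, 762 and 27.4 FPKM in I/R replicates 6, 7 and 9, against 599, 255 and 125 FPKM in sham replicates 1, 3 and 5. Fabp6, a bile acid carrier of the ileum, had 5.76 FPKM in I/R replicate 9 and at least 956 FPKM in each of the other 5 libraries. Cd79a, part of the B cell receptor, had 77.1, 72.6 and 32.7 FPKM in I/R libraries, against 96.2, 1.93 and 1.47 FPKM in sham libraries. The 7 goblet cell markers all had a lower I/R mean (median log2 fold change -0.92), and the 4 red cell markers tested all had a higher one (median 1.14). Paneth cell markers summed to 2353 FPKM in sham replicate 5 and to at most 311 FPKM in each of the other libraries. The part of these cell types in the results below was not tested. In whole tissue, fewer cells of a type and less RNA per cell cannot be told apart.

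No member passed the test between I/R and sham. In simulated data this test found 6.89% of 2-fold and 66.9% of 4-fold changes, so most 2-fold changes would be missed. Limma on log2(FPKM + 1), with Benjamini-Hochberg adjustment over all 12006 genes, called 0 of 53 members at an adjusted p under 0.05, against 0.0333% of all genes tested (0.0167% higher and 0.0167% lower in I/R), and the members' adjusted p ran between 0.471 and 0.991. At an unadjusted p under 0.05 there were 3 members (5.66%), against 8.94% of all genes. These were Atp6v1f and Atg16l1 with a higher I/R mean (5.56% of all genes in that direction) and Atg9a with a lower one (3.38%). Atp6v1f alone also had a fold change of at least 2, a rule that 2.9% of all genes met (1.92% higher and 0.975% lower in I/R). All 3 I/R values lay outside the range of all 3 sham values in 8 members (15.1%), against 16.5% of all genes. Atg16l1, Atp6v0b, Atp6v1c1 and Atp6v1f did so with higher I/R values (10.6% of all genes), and Atg4b, Atg4d, Atg9a and Atp6v0a1 with lower ones (5.89%). The shares of members were thus near or below those of all genes on each count but the lower non-overlapping one, where 4 of 53 members came to 7.55%.

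The members were expressed throughout. All 53 had a value above 0 in each of the 6 libraries, 44 averaged at least 5 FPKM (6807 of the 12006 genes did), and their median level was 16.8 FPKM, against 6.39 FPKM over all genes tested. Summed FPKM of the 53 came to 2014, 1875 and 1868 in I/R libraries and 1952, 1841 and 1630 in sham libraries, with I/R and sham values interleaved. Between groups, 26 members had a higher mean log2 value in I/R and 27 a lower one. Of all 12006 genes tested, 7521 had a higher and 4485 a lower one. The counts of higher and lower means below should be read against that split. Their median log2 fold change, I/R minus sham, was -0.01, and that of all genes tested was 0.12, so 21 of 53 members lay above the middle of all genes. Scaling the libraries by median ratios moved the median of the members to -0.14 and that of all genes to 0.0089, and directions of small size should be read against that shift.

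**Figure D1:**
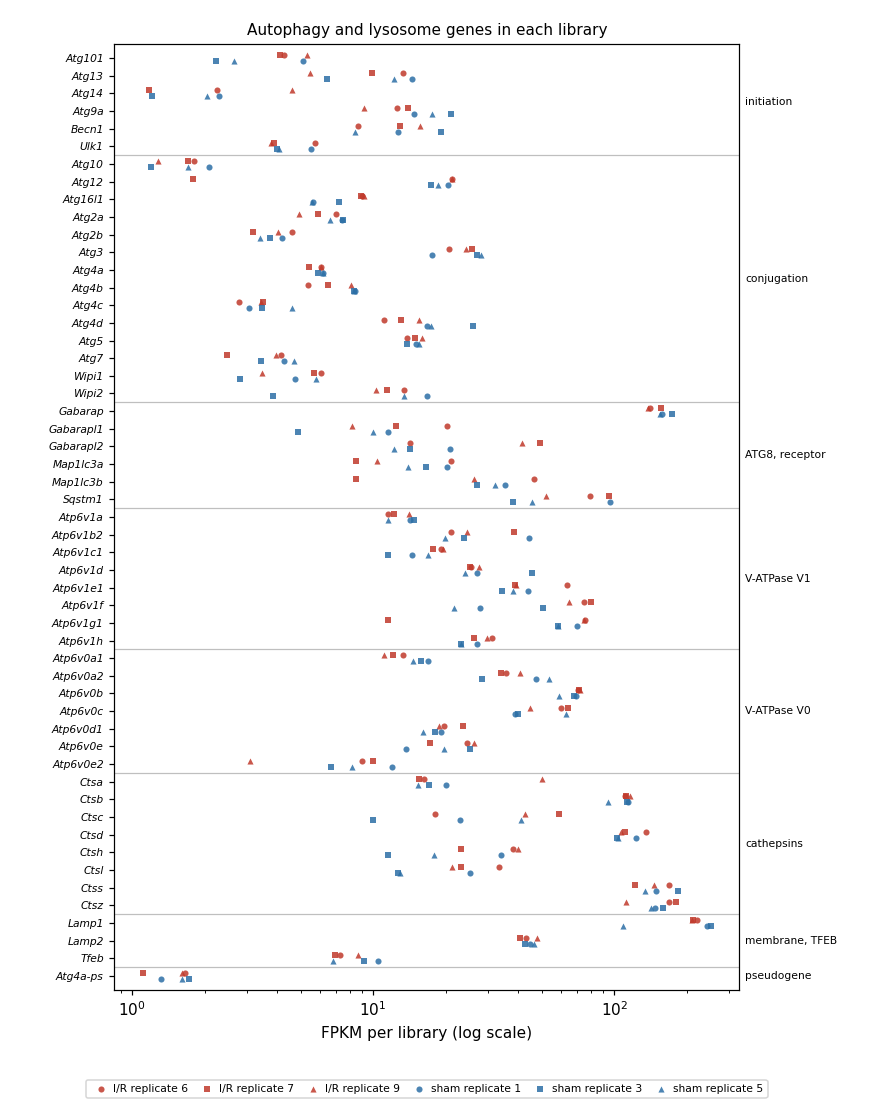
FPKM of the 53 autophagy and lysosome genes in each library, on a log axis, grouped by role; red symbols are the 3 I/R libraries and blue symbols the 3 sham libraries, 1 symbol shape per replicate. The groups overlap in most rows, and I/R replicate 7 (red squares) lies far left of the other libraries for Atg12, Map1lc3b and Atp6v1g1.

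**Figure D2:**
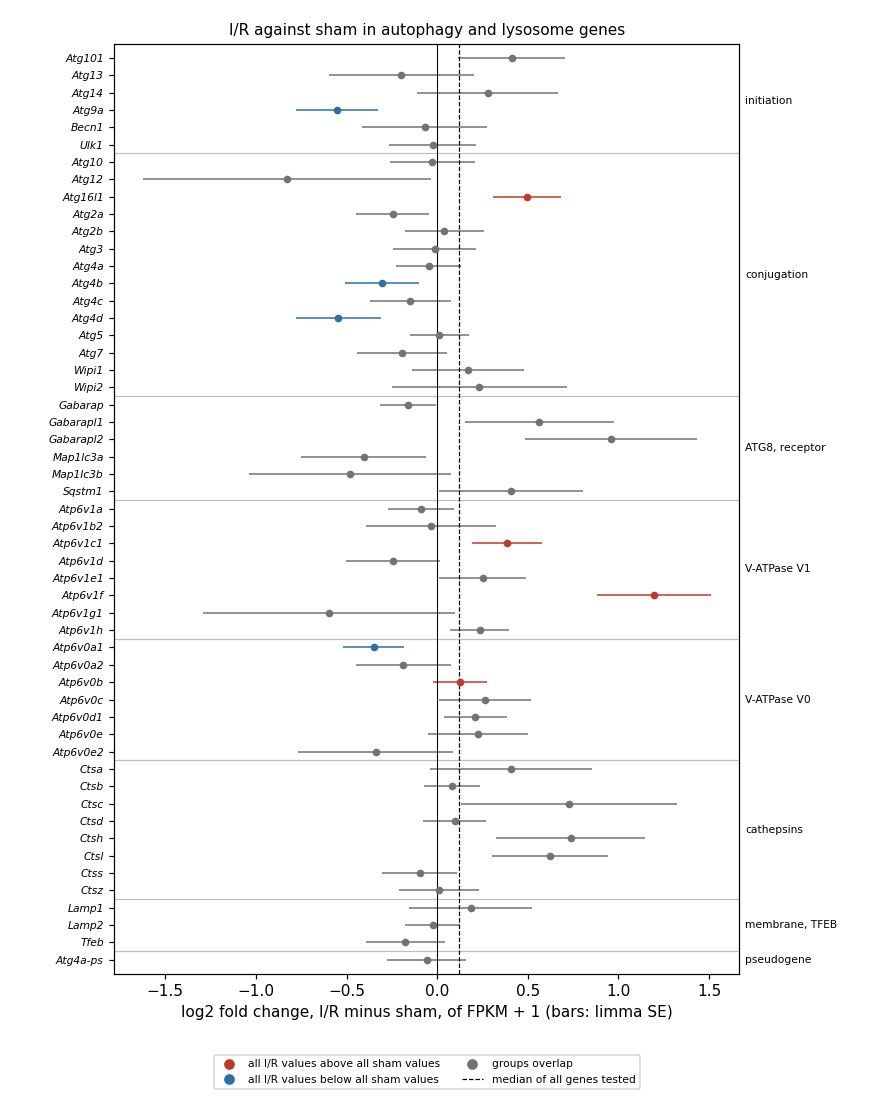
Log2 fold change of each member, I/R minus sham, of FPKM + 1, with the limma standard error as bars; red marks members whose I/R values all lie above the sham values, blue those all below, and the dashed line is the median of all 12006 genes tested, 0.12. Atp6v1f lies farthest right at 1.20, and Atg12 farthest left at -0.83 with the widest bar.

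Among the 6 genes that start the autophagosome, 2 had a higher and 4 a lower I/R mean, with a median log2 fold change of -0.05, and 1 was past an unadjusted p of 0.05. Atg9a encodes the multispanning membrane protein whose vesicles seed the autophagosome (chr1:75180860-75192196 in mm10, minus strand). It had 12.5, 14.0 and 9.12 FPKM in I/R libraries, against 14.8, 21.1 and 17.6 FPKM in sham libraries. The highest I/R value was just below the lowest sham value. Limma gave a log2 fold change of -0.55 ± 0.23 (SE) at p = 0.0485 (adjusted p = 0.554), and the exact 2-sided permutation test gave 0.1, the smallest p that 3 against 3 samples allow. Of its 4 listed transcripts, only Atg9a-208, with 6.25% of the sum and a mean of 0.928 FPKM, separated the groups by itself. An unlisted annotated transcript, Gm29253, lies on the same strand within Atg9a. It matches 1826 of the 3764 bases of the main Atg9a transcript, and reads of that shared part cannot be told apart. Ulk1, the initiating kinase, had 5.73, 3.88 and 3.76 FPKM in I/R libraries and 5.53, 3.99 and 4.07 FPKM in sham libraries. Becn1, which encodes Beclin 1, had 8.64, 12.9 and 15.6 FPKM in I/R libraries and 12.6, 19.2 and 8.39 FPKM in sham libraries. For both the groups overlapped, with log2 fold changes of -0.03 and -0.07. Atg101, which steadies ATG13 in the ULK1 complex, had 4.26, 4.10 and 5.31 FPKM in I/R libraries, against 5.10, 2.23 and 2.65 FPKM in sham libraries (adjusted p = 0.673). Atg13 and Atg14 overlapped between groups as well.

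The conjugation machinery, counted with the WIPI and ATG2 proteins that act on the growing membrane, had 14 members, 5 with a higher and 9 with a lower I/R mean and a median log2 fold change of -0.04. Atg16l1 carries the ATG12-ATG5 conjugate to the membrane and is well known in the intestine from inherited risk of Crohn's disease in people (chr1:87755870-87792428, plus strand). It had 9.02, 8.90 and 9.18 FPKM in I/R libraries, a narrow range, against 5.63, 7.24 and 5.57 FPKM in sham libraries. Every I/R value was above every sham value, and limma gave a log2 fold change of 0.50 ± 0.19 (SE) at p = 0.0351 (adjusted p = 0.541; exact permutation test 0.1). With 1 library left out at a time the log2 fold change ran between 0.44 and 0.60. Of its 2 listed transcripts, which carried 62.3% and 37.7% of the sum, neither separated the groups by itself.

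Both ATG4 proteases with non-overlapping values, which trim ATG8 proteins and free them from lipid, were lower in I/R libraries without passing the test. Atg4d had 11.1, 13.1 and 15.5 FPKM in I/R libraries and 16.7, 25.9 and 17.3 FPKM in sham libraries (log2 fold change -0.55 ± 0.24, adjusted p = 0.563). Atg4b, described because its values did not overlap, had 5.37, 6.49 and 8.10 FPKM in I/R libraries and 8.39, 8.34 and 8.31 FPKM in sham libraries (adjusted p = 0.661). The sham values of Atg4b lay within 0.1 FPKM of each other. Atg4b and Atg4d overlap Thap4 and Kri1 on the opposite strand, both listed, and whether the counting used strand is not given in the sources read, so such reads are uncertain. Atg4a and Atg4c overlapped between groups. Atg4a shares 2115 bases with the retained copy Atg4a-ps at 99.3% identity, so the division of reads between that pair is uncertain. Atg3, the E2-like enzyme that hands ATG8 proteins to lipid and the conjugation gene of highest level, had 20.6, 25.6 and 24.4 FPKM in I/R libraries and 17.5, 26.9 and 28.1 FPKM in sham libraries, a log2 fold change of -0.01. Atg5 had 13.8, 15.0 and 16.02 FPKM in I/R libraries and 15.1, 13.8 and 15.4 FPKM in sham libraries, and was named after its values were seen.

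Atg12, the ubiquitin-like protein joined to ATG5, gave the lowest fold change of all members, and 1 library set it. Its values were 21.3, 1.78 and 21.3 FPKM in I/R libraries and 20.4, 17.4 and 18.6 FPKM in sham libraries. I/R replicate 7 was far below the rest, and the other I/R libraries were slightly above sham. The log2 fold change was -0.83 ± 0.80 (SE, adjusted p = 0.728) with all libraries and 0.17 without I/R replicate 7. I/R replicate 7 was also the lowest library for Map1lc3b and for the V-ATPase stalk gene Atp6v1g1. In these 3 members, of 44 with a mean of at least 5 FPKM, 1 library lay under the lowest of the other 5 divided by 3, a limit chosen after the values were seen. That library was I/R replicate 7 in each case. Over all 6807 genes at that level, 4.3% had such a low library, and in 0.735% it was I/R replicate 7.

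The ATG8 proteins and the receptor p62 differed widely in level. Gabarap was the most abundant of the 5 ATG8 genes with a mean of 153 FPKM over all libraries, and Gabarapl1 the least abundant at 11.2 FPKM. Gabarap had 140, 156 and 138 FPKM in I/R libraries, against 158, 174 and 154 FPKM in sham libraries. The groups overlapped at 1 library each, and the log2 fold change was -0.16 ± 0.15 (SE, adjusted p = 0.728). Gabarapl2 had 14.2, 49.1 and 41.6 FPKM in I/R libraries, against 20.9, 14.2 and 12.2 FPKM in sham libraries. I/R replicates 7 and 9 were above all sham libraries while I/R replicate 6 was among them, and the log2 fold change of 0.96 ± 0.48 had an adjusted p of 0.6002. Gabarapl1 had 20.2, 12.4 and 8.14 FPKM in I/R libraries, against 11.5, 4.90 and 9.96 FPKM in sham libraries (adjusted p = 0.675).

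The LC3 genes, the usual markers of autophagosomes, had lower I/R means. Map1lc3a had 21.1, 8.52 and 10.4 FPKM in I/R libraries and 20.2, 16.6 and 13.9 FPKM in sham libraries (log2 fold change -0.41 ± 0.34, adjusted p = 0.698). Map1lc3b had 46.6, 8.496 and 26.2 FPKM in I/R libraries and 35.2, 27.1 and 31.9 FPKM in sham libraries, so both the highest and the lowest of its 6 values were I/R. Its log2 fold change was -0.48 ± 0.56 (adjusted p = 0.775) and turned to 0.16 without I/R replicate 7. Sqstm1, which encodes p62, had 79.2, 95.4 and 51.9 FPKM in I/R libraries and 95.8, 37.9 and 45.5 FPKM in sham libraries. Its highest value was in sham replicate 1, and the log2 fold change of 0.41 ± 0.40 had an adjusted p of 0.731. Map1lc3b and Gabarapl2 have annotated pseudogene copies with at least 95% identity over at least 200 bases, so their values are uncertain by whatever reads those copies took.

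**Figure D3:**
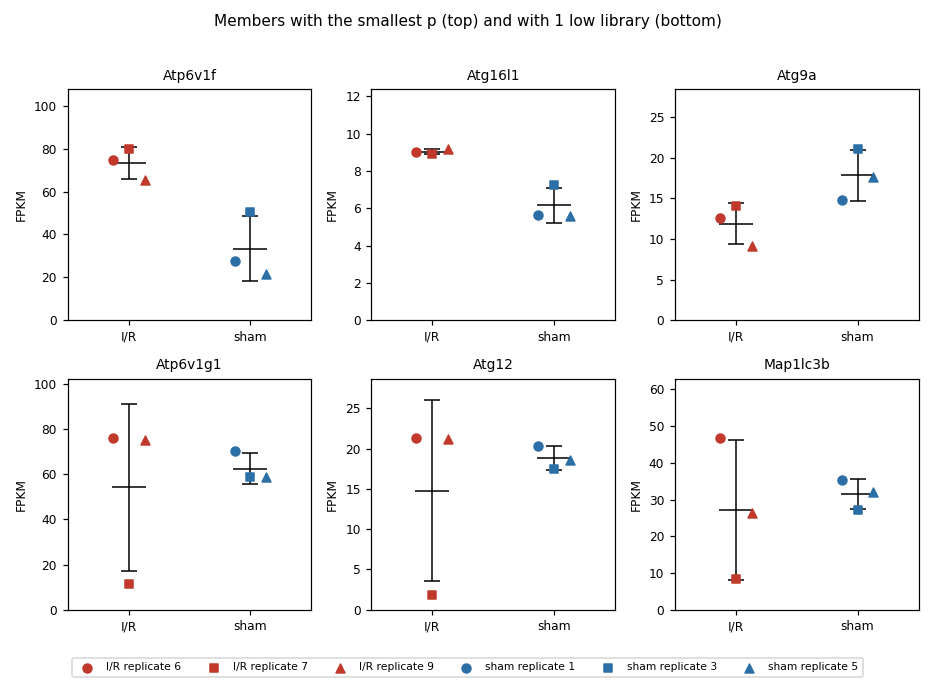
FPKM in each library (symbols by replicate, I/R red and left, sham blue and right, with mean and SD as black lines, n = 3 each) of the 3 members with an unadjusted limma p under 0.05 (top) and the 3 members with 1 low library (bottom). The groups separate in the top row, while in the bottom row I/R replicate 7 (square), at 11.5, 1.78 and 8.496 FPKM in panel order, lies apart.

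Tfeb, the transcription factor that controls many lysosomal genes, had 7.30, 6.92 and 8.62 FPKM in I/R libraries and 10.5, 9.16 and 6.80 FPKM in sham libraries. The groups overlapped, with a log2 fold change of -0.18 ± 0.22 (SE, adjusted p = 0.791). TFEB and its relatives are known to bind a sequence built around TCACGTG, called the CLEAR element. To show the sequence context of the members, promoters from RefSeq (build GRCm38.p6, 250 bases before to 50 bases after each start) were searched for TCACGTG on both strands, where it reads CACGTGA from the other side. Of the 53 members, 41 had a promoter in that table. The letters were present in 10 of these 41 genes (24.4%), against 6.85% of the 9404 tested genes that had a promoter and 4.29% of all 27025 genes in the table. The shorter core CACGTG, which TCACGTG contains, was in 29.3% of the members and 11.5% of the tested genes. A match describes the letters and does not show binding.

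The 10 genes with TCACGTG were Atg14, Atg3, Atg7, Atp6v0b, Atp6v0d1, Atp6v0e, Atp6v1a, Ctsa, Ctsd and Lamp1. Their median log2 fold change was 0.15 (7 higher and 3 lower in I/R, -0.19 to 0.41), and that of the 31 members without it was -0.03 (14 higher and 17 lower, -0.55 to 1.20). Over all 12006 genes tested the median was 0.12, with 7521 higher, so the genes with the letters lay near all genes. None of the 10 was past an unadjusted p of 0.05. A group of 4 promoters is shown, with Atp6v1f because it had the smallest p, and Atp6v0d1, Ctsd and Lamp1 as a pump subunit, an enzyme and a membrane protein that carry the letters. Each is read 5′ to 3′ on the strand of its gene, and capitals mark TCACGTG or CACGTGA, which overlap as TCACGTGA in Atp6v0d1 and once in Ctsd. Lamp1 holds the letters 4 times, and Atp6v1f (chr6:29467533-29467832, plus strand) does not hold them in this window. The other windows are chr8:105566015-105566314, minus strand, for Atp6v0d1, chr7:142387778-142388077, minus strand, for Ctsd, and chr8:13158911-13159210, plus strand, for Lamp1.
Atp6v1f: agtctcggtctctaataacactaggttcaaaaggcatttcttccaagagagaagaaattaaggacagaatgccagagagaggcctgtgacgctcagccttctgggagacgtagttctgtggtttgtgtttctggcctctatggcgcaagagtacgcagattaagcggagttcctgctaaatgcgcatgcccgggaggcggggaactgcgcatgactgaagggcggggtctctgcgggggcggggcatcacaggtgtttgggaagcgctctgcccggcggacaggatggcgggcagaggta
Atp6v0d1: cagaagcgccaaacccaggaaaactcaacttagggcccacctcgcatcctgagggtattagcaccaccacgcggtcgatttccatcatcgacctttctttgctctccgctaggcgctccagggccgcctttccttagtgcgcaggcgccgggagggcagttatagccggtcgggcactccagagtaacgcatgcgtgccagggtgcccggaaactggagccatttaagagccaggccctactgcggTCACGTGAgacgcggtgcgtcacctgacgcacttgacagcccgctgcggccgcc
Ctsd: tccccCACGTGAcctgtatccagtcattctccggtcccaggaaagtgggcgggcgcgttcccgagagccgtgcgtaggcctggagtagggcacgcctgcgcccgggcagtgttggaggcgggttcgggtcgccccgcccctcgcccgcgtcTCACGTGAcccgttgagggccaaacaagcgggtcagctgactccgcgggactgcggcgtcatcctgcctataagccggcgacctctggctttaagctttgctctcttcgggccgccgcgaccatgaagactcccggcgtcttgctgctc
Lamp1: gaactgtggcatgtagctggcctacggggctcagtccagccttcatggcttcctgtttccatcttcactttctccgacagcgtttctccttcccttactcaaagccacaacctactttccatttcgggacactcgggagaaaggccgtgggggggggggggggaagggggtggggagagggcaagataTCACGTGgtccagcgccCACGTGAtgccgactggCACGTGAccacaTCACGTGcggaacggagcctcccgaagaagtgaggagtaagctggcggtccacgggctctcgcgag

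The V-ATPase contributed 15 members, 8 of the V1 sector, which splits ATP in the cytosol, and 7 of the V0 sector, which carries protons through the membrane. Higher I/R means were found in 8 and lower ones in 7, with a median log2 fold change of 0.12, equal to that of all genes at this rounding. Summed over the 15 genes, FPKM came to 555, 482 and 512 in I/R libraries and 486, 464 and 449 in sham libraries. Means over all libraries ran between 8.17 FPKM (Atp6v0e2) and 68.5 FPKM (Atp6v0b).

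Atp6v1f, a subunit of the central rotor of V1, was the member with the smallest p (chr6:29467718-29470512, plus strand). It had 74.7, 79.9 and 65.2 FPKM in I/R libraries, against 27.8, 50.5 and 21.8 FPKM in sham libraries. The lowest I/R library exceeded the highest sham library, sham replicate 3. Means were 73.3 ± 7.46 FPKM in I/R and 33.3 ± 15.2 FPKM in sham (SD, n = 3 each). Limma gave a log2 fold change of 1.20 ± 0.31 (SE) at p = 0.00727 (adjusted p = 0.471; exact permutation test 0.1). The fold change ran between 0.94 and 1.53 with 1 library left out, and was 1.05 after median-ratio scaling. A single transcript, with 2 exons, carried 99.4% of the sum. An annotated pseudogene copy, AC169506.3, matches 360 of its 703 bases at 97.5% identity and is not among the listed transcripts, so reads of the pair may have been divided.

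The other 7 genes of V1 were not past an unadjusted p of 0.05. Atp6v1c1, a subunit that joins V1 to the membrane sector, had 19.1, 17.8 and 19.5 FPKM in I/R libraries and 14.4, 11.6 and 16.8 FPKM in sham libraries. These did not overlap, but the log2 fold change of 0.39 ± 0.19 had an adjusted p of 0.6002. The catalytic subunit gene Atp6v1a had a log2 fold change of -0.09, and its partner Atp6v1b2 one of -0.03. Atp6v1g1, a peripheral stalk subunit, had 75.8, 11.5 and 75.1 FPKM in I/R libraries and 70.2, 58.6 and 58.5 FPKM in sham libraries. Its log2 fold change was -0.60 ± 0.70 (adjusted p = 0.776) with all libraries and 0.27 without I/R replicate 7. Atp6v1g1 also has pseudogene copies of at least 95% identity.

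In V0, Atp6v0a1, a proton channel subunit, had 13.3, 12.1 and 11.1 FPKM in I/R libraries, against 16.9, 15.7 and 14.7 FPKM in sham libraries. All I/R values were below all sham values, and the log2 fold change of -0.35 ± 0.17 had an adjusted p of 0.592. Its paralog Atp6v0a2 ranged between 33.8 and 40.7 FPKM in I/R libraries and between 28.4 and 53.7 FPKM in sham libraries. Atp6v0b, a subunit of the proton-carrying ring, had 70.5, 71.4 and 72.3 FPKM in I/R libraries and 69.7, 67.9 and 59.2 FPKM in sham libraries. The groups were close, and the log2 fold change of 0.12 (adjusted p = 0.783) was -0.02 after median-ratio scaling. Atp6v0d1, the stalk between ring and V1 whose promoter is shown above, had 19.7, 23.6 and 18.8 FPKM in I/R libraries and 19.1, 18.1 and 16.03 FPKM in sham libraries (adjusted p = 0.692).

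Of the 8 cathepsins, 7 had a higher I/R mean, as did 7521 of all 12006 genes. Their median log2 fold change was 0.25 (0.12 over all genes), but none was past an unadjusted p of 0.05 and none separated the groups. Summed FPKM was 691, 646 and 636 in I/R libraries and 638, 611 and 562 in sham libraries. After median-ratio scaling the signs of Ctsb, Ctsd and Ctsz turned, to -0.06, -0.05 and -0.14. Ctsl, a cysteine protease, had 33.2, 23.1 and 21.2 FPKM in I/R libraries and 25.3, 12.6 and 12.9 FPKM in sham libraries, with sham replicate 1 among the I/R values. Its log2 fold change was 0.62 ± 0.32 (SE, adjusted p = 0.607). Ctsh, a cathepsin that trims proteins from the amino end, had 37.9, 23.2 and 39.7 FPKM in I/R libraries and 34.02, 11.5 and 17.9 FPKM in sham libraries. Again sham replicate 1 lay within the I/R range, and the log2 fold change was 0.74 ± 0.41 (adjusted p = 0.624). Its main transcript, Ctsh-201, carried 90.8% of the sum and had a log2 fold change of 0.51 ± 0.41. The minor Ctsh-208 was listed at 11.7, 1.28 and 0.615 FPKM in I/R libraries and at 0 in every sham library. Whether transcript use or the assignment of reads differed there was not tested. Ctsc, which activates proteases of neutrophils and cytotoxic lymphocytes and was named after its values were seen, had 18.1, 59.0 and 42.6 FPKM in I/R libraries and 22.8, 10.01 and 40.9 FPKM in sham libraries.

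Markers of immune cells moved across the same libraries. The 11 macrophage markers tested summed to 184, 91.9 and 59.3 FPKM in I/R libraries and 130, 44.9 and 40.6 FPKM in sham libraries, and 9 of them had a higher I/R mean. The list also held Cd163, which was not tested. Cd68, which marks macrophage lysosomes, had 5.74, 4.29 and 3.30 FPKM in I/R libraries and 6.09, 1.03 and 1.84 FPKM in sham libraries. Among 7 neutrophil markers tested, the sum was 42.7, 8.38 and 12.1 FPKM in I/R libraries and 5.69, 2.26 and 2.75 FPKM in sham libraries. Some of these, such as S100a8 at 0 in every sham library, reached the minimum of 0.5 FPKM only through I/R libraries. The direction of the sum is therefore partly set by that minimum. Ly6g alone gave 19.2 FPKM of the sum in I/R replicate 6, and Mmp9 had a lower I/R mean. Cxcr2, Elane and Mmp8 were not tested. Sham replicate 1 was high in macrophage markers and in Cd79a as well as in Ctsl and Ctsh. The antigen-presenting genes set it apart less or not at all. In sham replicates 1, 3 and 5, Cd74 had 1243, 1292 and 475 FPKM, H2-Aa 921, 875 and 549 FPKM, and H2-Ab1 771, 506 and 459 FPKM. The part of these cells in the cathepsin values was not tested. With 1 library left out at a time, the log2 fold change ran between 0.43 and 0.93 for Ctsl and between 0.39 and 1.13 for Ctsh. The highest of each came without sham replicate 1. Without that library the median over all genes also rose, from 0.123 to 0.185, so the rise was not particular to these genes.

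**Figure D4:**
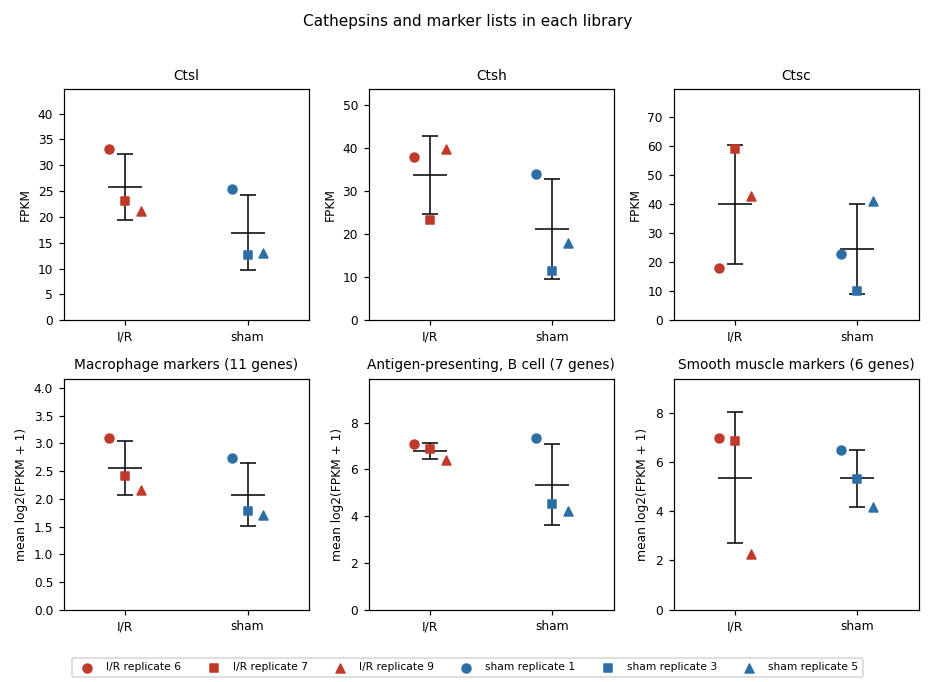
Top, FPKM of Ctsl, Ctsh and Ctsc in each library; bottom, the mean log2(FPKM + 1) of 11 macrophage, 7 antigen-presenting and B cell, and 6 smooth muscle markers (symbols by replicate, I/R red and left, sham blue and right, mean and SD in black, n = 3 each). Sham replicate 1 (blue circle) lies with the I/R libraries for Ctsl, Ctsh and both immune lists, in the second mainly through its B cell genes. I/R replicate 9 (red triangle) lies lowest for smooth muscle.

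The 4 most abundant cathepsins, Ctsz, Ctss, Ctsd and Ctsb, overlapped between groups. Ctsb had 111, 112 and 116 FPKM in I/R libraries and 114, 113 and 94.7 FPKM in sham libraries, a log2 fold change of 0.08 ± 0.16 (adjusted p = 0.869). Ctsd, the main aspartic protease of the lysosome, had 136, 111 and 107 FPKM in I/R libraries and 123, 103 and 104 FPKM in sham libraries, a log2 fold change of 0.10 ± 0.17 (adjusted p = 0.862). Part of Ctsd, 671 bases, is shared with Gm49369, a listed gene annotated at the same place, so its reads may be divided. Ctsz, the cathepsin of highest level, had 169, 180 and 112 FPKM in I/R libraries and 148, 159 and 142 FPKM in sham libraries, a log2 fold change of 0.01. Ctss, which cuts the invariant chain of MHC class II in antigen-presenting cells, ranged between 122 and 170 FPKM in I/R libraries and between 135 and 184 FPKM in sham libraries. Ctsa, also known as protective protein of sialidase and galactosidase, had 16.3, 15.5 and 50.1 FPKM in I/R libraries and 20.1, 17.1 and 15.4 FPKM in sham libraries. Its log2 fold change was 0.41 with all libraries and ran between -0.13 and 0.69 with 1 library left out. In I/R replicate 9, where Ctsa was high, Ctsa-201 was listed at 0 and Ctsa-202 at 43.4 FPKM. Whether transcript use or the assignment of reads differed there was not tested. Ctsa also overlaps the listed gene Pltp on the opposite strand. Ctss and Ctsa were named after their values were seen.

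Of the membrane proteins, Lamp1, the main glycoprotein of the lysosomal membrane, was the most abundant of all members. It had 221, 212 and 210 FPKM in I/R libraries and 243, 252 and 109 FPKM in sham libraries. Sham replicate 5 was the low one, and the log2 fold change was 0.18 ± 0.34 (SE, adjusted p = 0.864) with it and -0.21 without it. Lamp2, which is also needed for chaperone-mediated autophagy, had 43.3, 40.6 and 47.8 FPKM in I/R libraries and 44.6, 42.7 and 46.5 FPKM in sham libraries. Lamp1 overlaps Grtp1, and Ctsb overlaps Fdft1, on the opposite strand. The 6 values of Lamp2 lay close together, with a log2 fold change of -0.03 ± 0.15.

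Transcript by transcript, 88 were listed for the members, and 82 with a mean of at least 0.5 FPKM were tested among 18216. Limma called none of them at an adjusted p under 0.05, while 2 with higher and 2 with lower I/R values were past an unadjusted p of 0.05, where 7.41% of all tested transcripts were past that limit. The smallest adjusted p was 0.585, for the main transcript of Atp6v1f.

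Genes of the same pathways that the rule did not take are given here by list. Of 128 such genes in 5 lists, 124 were tested, and limma called none at an adjusted p under 0.05. Past an unadjusted p of 0.05 were 7 with higher and 5 with lower I/R values, where 5.56% and 3.38% of all genes were, and the median log2 fold change was 0.09, against 0.12 over all genes. Among 30 other autophagy genes, 3 with higher and 2 with lower I/R values were past that limit (5.56% and 3.38% of all genes). Optn, a receptor that links ubiquitin to LC3, had 36.6, 38.6 and 41.6 FPKM in I/R libraries, against 55.7, 82.2 and 64.4 FPKM in sham libraries. The groups lay well apart, with a log2 fold change of -0.76 ± 0.19 and an adjusted p of 0.465. Nbr1, another such receptor and named after its values were seen, had 19.6, 14.3 and 26.9 FPKM in I/R libraries and 31.1, 28.4 and 32.1 FPKM in sham libraries (adjusted p = 0.549). Retreg1, a receptor for autophagy of the endoplasmic reticulum, had 17.4, 11.9 and 27.4 FPKM in I/R libraries and 13.7, 4.37 and 4.08 FPKM in sham libraries (log2 fold change 1.36 ± 0.49, adjusted p = 0.533). Snap29, a SNARE that helps autophagosomes fuse with lysosomes, had 2.75, 10.9 and 15.5 FPKM in I/R libraries and 3.40, 1.77 and 1.92 FPKM in sham libraries (adjusted p = 0.543). For Retreg1 and Snap29 the groups overlapped, through I/R replicate 7 or 6 and sham replicate 1.

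Of 37 lysosomal enzymes and activators outside the cathepsins named, 24 had a higher and 13 a lower I/R mean (7521 and 4485 of all 12006 genes). Their median log2 fold change was 0.14 (0.12 over all genes), and none with lower I/R values was past an unadjusted p of 0.05. Ppt1, which removes palmitate from proteins, had 11.4, 13.1 and 9.74 FPKM in I/R libraries and 9.57, 8.06 and 6.74 FPKM in sham libraries. The groups lay next to each other without overlap, and the log2 fold change of 0.45 ± 0.21 had an adjusted p of 0.592. Among 18 other membrane proteins, 6 had a higher and 12 a lower I/R mean, and 1, with lower values, was past an unadjusted p of 0.05 (3.38% of all genes). Hgsnat, an acetyltransferase of heparan sulfate breakdown, had 6.87, 4.31 and 6.37 FPKM in I/R libraries and 12.1, 7.96 and 13.8 FPKM in sham libraries (log2 fold change -0.83 ± 0.27, adjusted p = 0.517). Laptm5, a lysosomal protein of blood cells, had 63.5, 47.3 and 30.1 FPKM in I/R libraries and 61.3, 7.84 and 8.65 FPKM in sham libraries, low in the same 2 sham libraries as Cd79a. Among 11 other pump subunits and assembly factors, 9 had a higher and 2 a lower I/R mean (7521 and 4485 of all 12006 genes). In each direction, 1 gene was past an unadjusted p of 0.05 (5.56% and 3.38% of all genes). They were the assembly factor Ccdc115, with 13.1, 11.2 and 11.02 FPKM in I/R libraries and 8.83, 4.71 and 8.60 FPKM in sham libraries, and Tldc2, with 10.3, 14.0 and 13.7 FPKM in I/R libraries and 17.2, 17.2 and 23.2 FPKM in sham libraries (adjusted p = 0.554 and 0.541).

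Among 28 genes that control TFEB and mTORC1, 2 with higher and 1 with lower I/R values were past an unadjusted p of 0.05 (5.56% and 3.38% of all genes). Tfe3, a relative of TFEB that binds the same element, had 9.51, 10.7 and 8.62 FPKM in I/R libraries, against 6.01, 6.08 and 6.50 FPKM in sham libraries, where Tfeb itself overlapped. The log2 fold change of Tfe3 was 0.56 ± 0.18 (adjusted p = 0.516). Rheb, the small GTPase that activates mTORC1, had 31.3, 27.3 and 29.6 FPKM in I/R libraries and 23.4, 17.8 and 19.1 FPKM in sham libraries (adjusted p = 0.517). Sesn2, a stress-induced inhibitor of mTORC1, had 2.92, 2.87 and 1.96 FPKM in I/R libraries and 5.21, 4.11 and 4.12 FPKM in sham libraries (log2 fold change -0.62 ± 0.23, adjusted p = 0.535). In all 3, named for the smallest p of the list, the groups did not overlap, with exact permutation p = 0.1 each. None passed the adjusted threshold. Of the 28 genes, 6 with higher and 1 with lower I/R values did not overlap (10.6% and 5.89% of all genes).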

How the data were processed

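RNA-seq covered 6 samples of small intestine, 3 I/R and 3 sham, grouped by the labels. Libraries were random-primed and stranded by dUTP. The authors deposited FPKM per transcript and sample. The submitters' processing notes name cutadapt, HISAT2 2.0.4, StringTie and mm10, and for the annotation and the remaining versions this is not given in the sources used here. All 19763 listed transcripts had a group mean of at least 0.5 FPKM, so lower ones are not analysed here. Depth is unknown, so no interval or detection limit is given.

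Identifiers were matched without version to GENCODE M21 (19702 matched, and 61 kept their own identifier), and FPKM were summed per gene. A sum misses unlisted transcripts and depends on how reads were shared among transcripts that differ in length. The 12006 genes whose mean reached 0.5 FPKM were fitted with limma 3.58.1 in R 4.3.3 (trend, no scaling, 2-sided) on log2(FPKM + 1), which understates the change of low genes, with Benjamini-Hochberg adjustment. The fit was tested on 20 draws of simulated data, with 200 of 12006 genes changed. The changed genes were drawn from those with a mean of at least 4 FPKM, and each change was added to log2(FPKM + 1). The noise was normal, so the shares found do not carry over to lower members or to members with 1 outlying library. At an adjusted p under 0.05 it called 6.89% of 2-fold, 66.9% of 4-fold and 85.2% of 8-fold changes. Of its calls, 5.55% were false. A gene that was not called may therefore still have changed. The exact permutation test enumerated all splits of 3 against 3. A second count required a 2-fold change or more with an unadjusted p under 0.05. These are limits that the paper gives for its RNA-seq of cultured cells, and it states none for the mouse samples. Members with all values apart and an unadjusted p under 0.05, the 2 of smallest p and the most abundant per role, 12 usual readouts, and up to 3 genes of smallest p per companion list are named, except that some results are not reported here. The members and lists were chosen with earlier results of these data known. Alternatives were pseudocounts 0.1 and 0.5, no filter or a mean of at least 5 FPKM, median-ratio or quantile scaling, no trend, the most abundant transcript of each gene, and leaving out each library. Near-identical copies were sought among GENCODE transcripts, with at least 95% identity over at least 200 bases.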

Additional observations from a re-analysis of the deposited data

How the results depend on the processing

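No paired analysis was possible because the replicate numbers of the I/R group (6, 7 and 9) and of the sham group (1, 3 and 5) are not shared. No alternative gave a member or companion gene an adjusted p under 0.05. At an unadjusted p under 0.05, members higher in I/R numbered 2 as reported and 1 with median-ratio scaling, quantile normalization or the most abundant transcript of each gene. Members lower numbered 1 as reported, 2 with a mean of at least 5 FPKM or median-ratio scaling, 3 with quantile normalization, and 0 without a trend or with the most abundant transcript. Companion genes lower numbered 5 as reported, 9 with median-ratio scaling and 8 with quantile normalization, and those higher 7 as reported and 4 with the most abundant transcript. With 1 library left out, members higher numbered 1 to 5 and lower 0 to 2, and companion genes higher 2 to 13 and lower 2 to 4. Over all genes the higher share was 5.56% as reported, 3.81% with median-ratio scaling and 4.31% with quantile normalization, and the lower share 3.38%, 5.09% and 5.56%. The highest counts, 5 and 13, came without sham replicate 1, where 10.7% of all genes were higher. The members' median log2 fold change ran between -0.01 and 0.09 with 1 library left out and was -0.14 after median-ratio scaling. The causes were not tested.

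Of 42 genes taken by the naming rule, 31 kept their direction in every alternative run. The sign turned for Ulk1 (0.082 with its most abundant transcript) and, after median-ratio scaling, for Atp6v0b (-0.021), Ctsb (-0.064), Ctsd (-0.049) and Ctsz (-0.14). Log2 fold changes with 1 library left out crossed 0 for Becn1 (-0.34 to 0.21), Ulk1 (-0.19 to 0.10), Atg3 (-0.22 to 0.11), Map1lc3b (-1.003 to 0.16), Atp6v1g1 (-1.03 to 0.27), Ctsb (-0.0052 to 0.13), Ctsd (-0.0070 to 0.18), Ctsz (-0.12 to 0.22), Lamp1 (-0.21 to 0.39) and Lamp2 (-0.087 to 0.028). With 3 libraries per group the exact test cannot go below 0.1.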
